A study of Mus musculus with 38 samples.

Results

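The response of BV2 cells to direct co-culture with GL261 cells was examined at low oxygen by comparing 2 RNA-seq libraries of BV2 cells from hypoxic co-culture with 2 libraries of BV2 cells grown alone in hypoxia. These 4 libraries are part of 38 RNA libraries in the series. The count table holds 55487 Ensembl genes, and 14432 of them passed the filter on low counts and were tested. A gene was called partner-high when its mean CPM (counts scaled to equal library totals) in hypoxic GL261 monoculture was at least 4-fold higher than in hypoxic BV2 monoculture. By this rule 8624 genes of the table were partner-high, 1772 of them tested, and they are described separately at the end. The remaining 46863 genes, 12660 of them tested, are the subject of most of what follows.

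BV2 is an immortalised mouse microglial cell line, and GL261 is a mouse glioma cell line that carried the plasmid pEGFP-N1 here. For co-culture, 2 GL261 cells were plated per BV2 cell, both lines sharing BV2 medium with 2% serum, and the mixture then spent 16 h in normoxia, at 21% oxygen, or in hypoxia, with oxygen under 0.1%. Monocultures of each line were kept alone at the same oxygen levels. The 4 BV2 groups, hypoxic or normoxic and co-cultured or alone, each had 2 libraries that the labels describe as biological replicates. The labels do not say how BV2 and GL261 cells were separated before RNA was taken, and each line is a single transformed line, so the spread between libraries is a spread within 1 line. A second comparison used 3 libraries of bone marrow-derived macrophages (BMDM), primary mouse cells, from hypoxic co-culture with GL261 and 2 of BMDM grown alone in hypoxia.

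Microglia are the resident macrophages of the brain. They depend on signalling through the receptor Csf1r, sense nucleic acids and microbial products through Toll-like receptors, survey tissue with purinergic receptors such as P2ry12, and export cholesterol through LXR-controlled transporters. The endoplasmic reticulum folds secreted and membrane proteins, and when unfolded proteins accumulate, the sensors Ire1, Perk and Atf6 raise the transcription of chaperones, disulphide isomerases and degradation factors. Perk shares the integrated stress response with kinases that sense amino acid shortage, and its effector Atf4 raises genes for amino acid synthesis and transfer RNA charging. Chronic low oxygen is among the conditions known to engage both arms.

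The 4 hypoxic BV2 libraries held 17503500 to 18570700 counts (to 6 digits), so that 3 counts corresponded to 0.162 to 0.171 CPM, a floor that covers counting error only. From 261 genes specific to GL261, the GL261 share was estimated as 2.07% and 2.33% in the co-culture libraries and as 0 and 0.0524% in the monoculture libraries. The summed level of 23 glioma and neural markers was 3.54 and 6.30 CPM in monoculture, 95.05 and 112.7 CPM in co-culture and about 4303 to 4347 CPM in GL261 alone, with 2 of them at 0 in every hypoxic BV2 library. The summed level of 14 macrophage and microglia markers was 5536 and 5377 CPM in monoculture, 4263 and 4040 CPM in co-culture and 5.29 to 6.204 CPM in GL261 alone. All 14 macrophage markers were detected, but Aif1, a widely used microglial marker, lay between 0.700 and 1.30 CPM. The 6 T and B cell markers summed to at most 0.343 CPM and the 4 neuronal markers to at most 1.52 CPM in these libraries. The 4 endothelial markers summed to 59.9 to 80.8 CPM, nearly all of it Kdr, without separating the groups.

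Among the 12660 tested genes that were not partner-high, 1573 (12.4%) passed an adjusted p of 0.05 in edgeR's quasi-likelihood test. Over all 14432 tested genes 15.7% were called, 8.13% higher and 7.57% lower. Of the 1573, 495 (3.91%) rose and 1078 (8.52%) fell in co-culture. Most changes were modest: the median log2 fold change was 0.59 among the genes that rose and -0.60 among those that fell, and 102 and 119 of them changed by more than 2-fold. The count of genes that fell depended on how GL261 RNA was treated. With partner-high genes left out of the fit, 524 genes rose and 840 fell. With the estimated GL261 RNA subtracted by its monoculture profile, 448 rose and 816 fell, and by its co-culture profile 441 rose and 780 fell. The count of genes that rose was sensitive to single libraries. It was 282 without co-culture library 1, 235 without co-culture library 2, 146 without monoculture library 1 and 234 without monoculture library 2, when 1394, 813, 948 and 1012 genes fell. Because a low level in hypoxic BV2 monoculture helps to make a gene partner-high, the rule itself removes some genes that rose, and 563 genes rose and 1073 fell when the rule was applied to the normoxic monocultures.

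**Figure D1:**
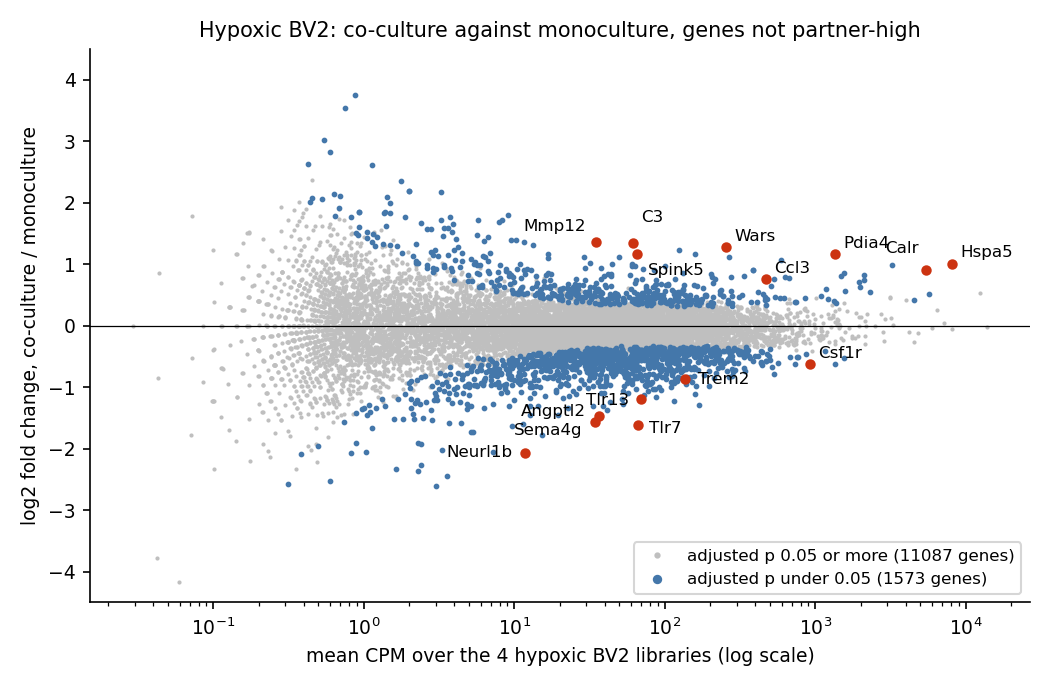
Log2 fold change of hypoxic BV2 co-culture over monoculture (y axis) against the mean CPM of the 4 libraries (x axis, log scale) for the 12660 tested genes that were not partner-high. Each point is a gene, the 1573 blue points passed the adjusted p of 0.05, and red points mark named genes; Hspa5 and Calr are among the most abundant transcripts that rose, and Tlr7 and Neurl1b lie at the lower edge.

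Genes of the endoplasmic reticulum and integrated stress responses rose together. Of 49 tested members of that list that were not partner-high, 20 rose (40.8%, against 3.91% of all such genes) and 0 fell. The list's median log2 fold change was 0.30, beside -0.04 for all tested genes that were not partner-high, and 43 of the 49 fold changes were positive. The 20 genes had log2 fold changes between 0.39 and 1.28, with a median of 0.71. In all 20 both co-culture libraries lay above both monoculture libraries, a pattern seen in 22.4% of the 12660 genes. The 20 were selected by the test on these same libraries, which favours that pattern. Summed over the 49 genes, the level was 25838 and 31616 CPM in hypoxic monoculture and 40574 and 47350 CPM in hypoxic co-culture, against 10378 and 10751 CPM in normoxic monoculture and 8783 and 9418 CPM in normoxic co-culture (CPM scaled by TMM factors, as for all single genes from here on).

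The chaperones of the endoplasmic reticulum were among the abundant members that rose. Hspa5 (chr2:34771970-34777547, GRCm38, plus strand) encodes BiP, the main Hsp70-type chaperone of that compartment. Its level was 4690 and 5975 CPM in the monoculture libraries and 9539 and 11958 CPM in the co-culture libraries (log2 fold change 1.01, SE 0.16, adjusted p = 0.000466). The groups did not overlap, and Hspa5 was among the most abundant transcripts of the co-culture libraries. Hsp90b1, the Hsp90 paralog of the same compartment, stood at 1785 and 2520 CPM alone and 3844 and 4732 CPM in co-culture (log2 fold change 0.99, SE 0.16, adjusted p = 0.000566). Pdia4 (chr6:47796141-47813430, minus strand), a disulphide isomerase, stood at 682 and 989.8 CPM alone and 1640 and 2122 CPM in co-culture (log2 fold change 1.17, SE 0.17, adjusted p = 0.000184). Both genes were higher in each co-culture library than in either monoculture library, although the second library of each group was the higher one. Creld2, a secreted stress-induced isomerase-like protein, rose from 283 and 480.3 CPM to 690.4 and 908 CPM (log2 fold change 1.07, SE 0.19, adjusted p = 0.000986). Manf, a secreted protein of the same response, rose from 445 and 532 CPM to 749 and 935 CPM (log2 fold change 0.79, SE 0.13, adjusted p = 0.000612).

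Helpers and degradation factors of the endoplasmic reticulum moved the same way by smaller amounts. Pdia6 had a log2 fold change of 0.87 (adjusted p = 0.00221), the chaperone partner Sdf2l1 of 0.76 (0.00164), the co-chaperone Dnajc3 of 0.65 (0.0162) and the nucleotide exchange factor Hyou1 of 0.64 (0.0183). The retrotranslocation complex, which sends misfolded proteins to the proteasome, was represented by Sel1l at 0.60 (0.0456) and its ubiquitin ligase Syvn1 at 0.45 (0.0355). Calr (chr8:84841850-84846934, minus strand) and Pdia3, which fold glycoproteins and load class I MHC, belong to the list of class I presentation instead. Calr stood at 3408 and 4219 CPM alone and 6240 and 8056 CPM in co-culture (log2 fold change 0.91, SE 0.16, adjusted p = 0.00111), and Pdia3 rose from 1402 and 1734 CPM to 2290 and 2994 CPM (log2 fold change 0.75, SE 0.16, adjusted p = 0.00323). The weaker of these calls rested on single libraries: Pdia6 lost it without co-culture library 2 (adjusted p = 0.0528) or monoculture library 1 (adjusted p = 0.0502), Sdf2l1 without monoculture library 1 (adjusted p = 0.0508), Dnajc3 without co-culture library 2 (adjusted p = 0.131) or monoculture library 1 (adjusted p = 0.3), Hyou1 without co-culture library 1 (adjusted p = 0.0769), co-culture library 2 (adjusted p = 0.0871) or monoculture library 1 (adjusted p = 0.317), Sel1l without co-culture library 1 (adjusted p = 0.107), co-culture library 2 (adjusted p = 0.208) or monoculture library 1 (adjusted p = 0.573), Syvn1 without co-culture library 1 (adjusted p = 0.0751), co-culture library 2 (adjusted p = 0.231) or monoculture library 1 (adjusted p = 0.44) and Pdia3 without co-culture library 2 (adjusted p = 0.0734) or monoculture library 1 (adjusted p = 0.0662). In the DESeq2 Wald test Dnajc3, Hyou1 and Sel1l were not called (adjusted p = 0.117, 0.106 and 0.264), and Sel1l was not called at a mean CPM of at least 5 (0.0562) or with GL261 RNA subtracted by its co-culture profile (0.0524).

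Some genes of the amino acid branch rose and others were not called. Wars (chr12:108860030-108894174, minus strand), the tryptophan transfer RNA synthetase, stood at 125 and 172 CPM alone and 319.7 and 402 CPM in co-culture, the largest log2 fold change of the list (1.28, SE 0.15, adjusted p = 2.01e-05). Aars, the alanine synthetase, stood at 426 and 489 CPM and 825 and 766 CPM (log2 fold change 0.80, SE 0.11, adjusted p = 0.000144). Of Aars transcript sequence 13.2% recurs in other genes, so its counts carry some uncertainty. Gars, the glycine synthetase, and Asns, which makes asparagine, had log2 fold changes of 0.56 (adjusted p = 0.00349) and 0.51 (0.0198), but Gars lost its call without co-culture library 2 (adjusted p = 0.0646) or monoculture library 1 (adjusted p = 0.0521), and Asns without co-culture library 2 (adjusted p = 0.167), monoculture library 1 (adjusted p = 0.157) or monoculture library 2 (adjusted p = 0.0726). Not called were Pycr1, which makes proline (0.30, adjusted p = 0.389), Pck2, a mitochondrial carboxykinase (0.18, 0.481), the stress regulator Nupr1 (0.05, 0.849), Slc7a11, the cystine transporter (0.03, 0.957), and Psat1, of serine synthesis (-0.16, 0.374). Ppp1r15a, the phosphatase subunit Gadd34 that reverses the block on translation, stood at 139 and 150.4 CPM and 262 and 255 CPM (log2 fold change 0.84, SE 0.15, adjusted p = 0.000866). Of the transcription factors of the pathway, Atf4, Ddit3 and Xbp1 did not pass the test at the RNA level. Atf4 was at 748 and 736 CPM alone and 719 and 851 CPM in co-culture (log2 fold change 0.08, adjusted p = 0.714). Ddit3, which encodes Chop, was at 139 and 187 CPM and 149.96 and 237 CPM (0.25, 0.399), and Xbp1 at 315 and 359 CPM and 292 and 317 CPM (-0.14, 0.472). The groups overlapped for Atf4, Ddit3 and Xbp1. Atf5, another such factor, was called higher, but lost its call under 6 of the 13 alternatives. Atf3 was called higher as well and is described with the immediate early genes. Trib3, a pseudokinase induced by Atf4 and Chop, was at 545 and 598 CPM and 719.7 and 824 CPM and stood just outside the threshold (0.43, 0.0523), without overlap between the groups. Under 7 of the 13 alternatives Trib3 was called, with adjusted p-values of 0.0278 to 0.0493.

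**Figure D2:**
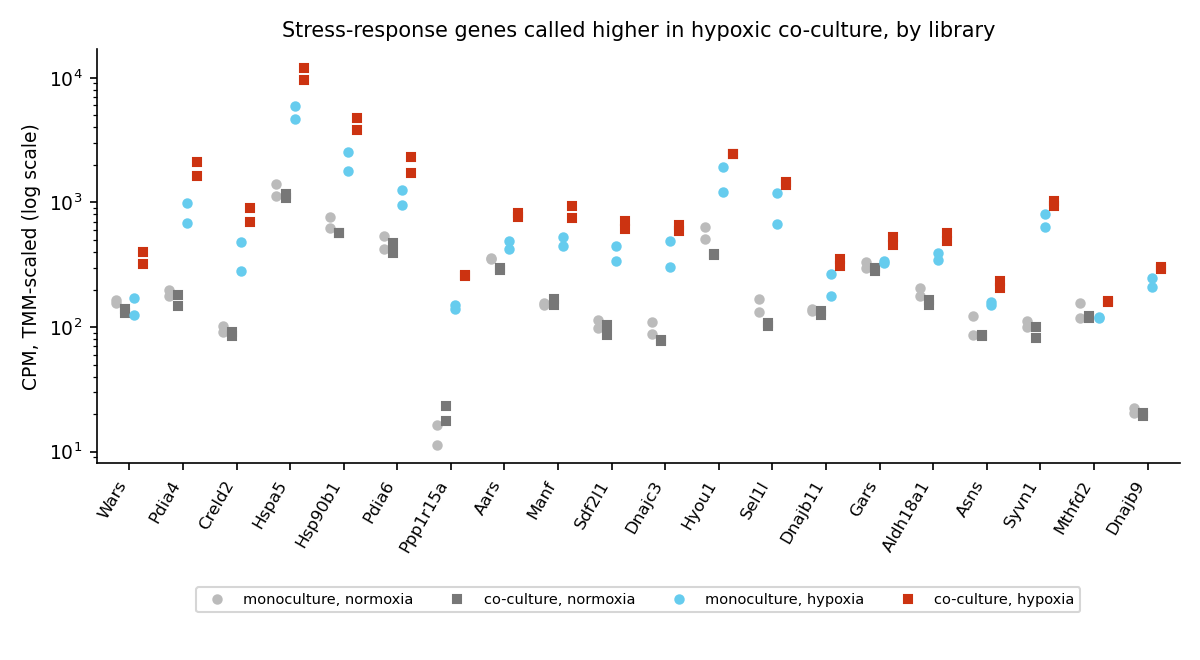
CPM per library (y axis, log scale, TMM-scaled) of the 20 stress-response genes that rose in hypoxic BV2 co-culture (x axis). Points are libraries, 2 per group; in every gene shown both hypoxic co-culture libraries (red squares) lie above both hypoxic monoculture libraries (light blue circles), while the normoxic groups (grey) lie below hypoxic co-culture.

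The co-culture effect on the stress list differed between the oxygen levels. In normoxia the same co-culture comparison gave 1 list member higher and 7 lower, with a median log2 fold change of -0.19. The interaction, the co-culture effect in hypoxia minus that in normoxia, was positive and passed an adjusted p of 0.05 in 14 of the 49 genes, beside 0.908% of all genes that were not partner-high, and was negative and passed in 0. All 14 were among the 20 that rose. The interaction contains the hypoxic difference that selected the 20, so this overlap is no separate support. Interaction calls were not checked under other settings. For Wars the co-culture log2 fold change was 1.28 in hypoxia and -0.25 in normoxia (interaction 1.53, SE 0.21, adjusted p = 0.00296). For Hspa5 it was 1.01 and -0.17 (interaction 1.18, SE 0.23, adjusted p = 0.0216), with 1120 and 1411 CPM in normoxic monoculture and 1081 and 1175 CPM in normoxic co-culture. In hypoxic BMDM, 19 of the same 20 genes had a positive log2 fold change with a median of 0.42, but none passed the test there, the smallest adjusted p being 0.108. Partner RNA was present in the co-culture libraries, and its size can be set beside these rises: the rise in CPM was between 8.01 and 169.4 times the amount that the GL261 share would add from the level of each gene in hypoxic GL261 monoculture. Hspa5 rose by 67.8 times that amount and Ppp1r15a by 9.33 times. Of the 20 calls, 8 held under every one of the 13 alternatives tried (Wars, Pdia4, Creld2, Hspa5, Hsp90b1, Manf, Aars and Ppp1r15a). The count of 20 was 9 without co-culture library 2 and 8 without monoculture library 1, the library with the lower chaperone levels of its pair.

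Promoter sequence was searched for 2 elements of these stress responses. RefSeq promoters (GRCm38.p6, 250 bases before to 50 after the start) were found for 17 of the 20 genes that rose. The endoplasmic reticulum stress element, searched on either strand as CCAAT and CCACG with 9 bases of any kind between them, occurred in 6 of those 17 promoters (35.3%), in 0 of 23 promoters of list members that were not called, and in 37 of 27025 genes with a promoter entry (0.137%). The Atf4-type composite element, TGATGNAA on either strand, occurred in 3 of 17 (17.6%), in 6 of 23 (26.1%) and in 1219 of 27025 (4.51%). Aars is among the 3 with the composite element, but its stretches are not printed. The stretches that follow are printed because they hold an element in members that rose. They read 5′ to 3′ on the strand of the gene, with the fixed bases of the element in capitals.
Creld2, chr15:88819505-88819553, plus strand: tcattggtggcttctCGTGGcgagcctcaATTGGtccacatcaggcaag
Hspa5, chr2:34772010-34772058, plus strand: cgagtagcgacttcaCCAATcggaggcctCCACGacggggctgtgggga
Hsp90b1 (distal), chr10:86705623-86705671, minus strand: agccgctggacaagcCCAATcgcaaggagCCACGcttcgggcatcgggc
Hsp90b1 (proximal), chr10:86705518-86705566, minus strand: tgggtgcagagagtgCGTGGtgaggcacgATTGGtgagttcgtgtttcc
Pdia6, chr12:17266476-17266524, plus strand: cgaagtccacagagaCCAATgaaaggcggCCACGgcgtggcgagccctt
Dnajc3, chr14:118937812-118937860, plus strand: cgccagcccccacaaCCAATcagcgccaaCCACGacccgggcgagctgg
Syvn1, chr19:6046517-6046565, plus strand: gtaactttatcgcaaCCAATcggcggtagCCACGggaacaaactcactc
Gars, chr6:55037956-55037993, plus strand: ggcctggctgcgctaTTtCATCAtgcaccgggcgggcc
Asns, chr6:7693210-7693247, minus strand: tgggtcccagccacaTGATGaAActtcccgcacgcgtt
The first 7 stretches hold the stress element and the last 2 the composite element. Creld2 and the proximal Hsp90b1 stretch hold the stress element on the opposite strand, as does Gars the composite element. Counted from the RefSeq start, the element of Hspa5 spans 65 to 47 bases before it. Those of Hsp90b1 span 212 to 194 and 107 to 89 bases before the RefSeq start of that gene. The gene coordinates of Hspa5 given above come from another annotation, in which the gene starts before the printed stretch. A match describes the letters of this window only. The list was made of genes of these responses, so its shares are not independent of that choice and are no separate support for the RNA values.

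Several inflammatory genes also rose. Of 32 tested genes of NF-kB feedback and acute inflammation, 9 rose and 1 fell (28.1% and 3.12%), with a median log2 fold change of 0.14. The 9 were 4 (and 3 fell) without co-culture library 1, 8 without co-culture library 2 and 5 without either monoculture library. Of 14 chemokine ligands, 3 rose (21.4%) and 0 fell, and 2 rose without any one library except co-culture library 1. Of 16 complement genes 3 rose and 3 fell (18.8% each), but 1 rose without co-culture library 1 or monoculture library 2, and 1 fell without co-culture library 2 or monoculture library 1. C3 (chr17:57203970-57228136, minus strand), the central complement component, stood at 41.2 and 28.6 CPM in monoculture and 106 and 70.8 CPM in co-culture (log2 fold change 1.34, SE 0.19, adjusted p = 0.000171). The groups did not overlap, and GL261 cells held only 0.230 CPM. Ccl3 and Ccl4, neighbouring genes for chemokines that attract myeloid cells, rose as well. Ccl3 stood at 374 and 328 CPM and 606 and 579 CPM (log2 fold change 0.76, SE 0.11, adjusted p = 0.000258), and Ccl4 at 12.4 and 8.89 CPM and 23.4 and 22.1 CPM (log2 fold change 1.10, SE 0.17, adjusted p = 0.000268). Nos2, the inducible nitric oxide synthase, was close to the floor in normoxia (0.170 and 0.223 CPM alone) and stood at 81.98 and 75.2 CPM in hypoxic monoculture and 108 and 143 CPM in hypoxic co-culture (log2 fold change 0.67, SE 0.13, adjusted p = 0.00194), a call lost without co-culture library 2 (adjusted p = 0.0609). Nfkbiz, an NF-kB cofactor, rose from 26.7 and 32.8 CPM to 58.1 and 49.1 CPM (log2 fold change 0.85, SE 0.15, adjusted p = 0.00108). Ptgs2, cyclooxygenase 2, rose from 41.3 and 44.7 CPM to 103 and 65.97 CPM (log2 fold change 0.97, SE 0.20, adjusted p = 0.00287), and lost its call without co-culture library 1 (adjusted p = 0.0738). The co-stimulatory receptor Cd40 rose from 2.83 and 5.55 CPM to 9.47 and 9.62 CPM (log2 fold change 1.18, SE 0.26, adjusted p = 0.00543), and lost its call without monoculture library 1 (adjusted p = 0.0913). Nlrp3, the inflammasome sensor, was the member that fell, from 45.6 and 44.97 CPM to 34.1 and 28.8 CPM (log2 fold change -0.53, SE 0.12, adjusted p = 0.00723).

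Proteases and transcription factors showed both directions. Of 17 matrix metalloproteinases and inhibitors, 3 rose and 3 fell (17.6% each), and 1 rose without co-culture library 1 or monoculture library 2. Mmp12 (chr9:7344381-7369499, plus strand), macrophage elastase, had a high log2 fold change of 1.37 (SE 0.36, adjusted p = 0.0164) but uneven libraries, at 25.8 and 13.3 CPM alone and 72.1 and 28.6 CPM in co-culture. The groups stood close, and the call was lost without co-culture library 1 (adjusted p = 0.382) or monoculture library 2 (adjusted p = 0.157), and in the DESeq2 Wald test (adjusted p = 0.473). Plau, the protease urokinase, fell from 89.2 and 88.1 CPM to 54.7 and 46.3 CPM (log2 fold change -0.81, SE 0.12, adjusted p = 0.000294). Timp2, a metalloproteinase inhibitor, fell from 93.2 and 99.4 CPM to 64.4 and 57.5 CPM (log2 fold change -0.66, SE 0.11, adjusted p = 0.0006). Of 28 immediate early and RNA decay genes, 4 rose and 4 fell (14.3% each). Without co-culture library 1, 1 rose and 6 fell, without monoculture library 1, 1 rose, and without monoculture library 2, 2 rose. Atf3, a stress-induced transcription factor, rose from 281 and 259 CPM to 557 and 455 CPM (log2 fold change 0.91, SE 0.13, adjusted p = 0.000117), and Zfp36, which destabilises inflammatory messenger RNAs, fell from 75.8 and 76.3 CPM to 50.6 and 38.3 CPM (log2 fold change -0.77, SE 0.16, adjusted p = 0.00353). Zfp36 moved the other way in normoxia (0.96, adjusted p = 0.00224), with an interaction of -1.74 (SE 0.23, adjusted p = 0.00296).

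The largest rises among genes with a mean of at least 8 CPM were of mixed function. Gsta3, a glutathione transferase, had the largest at 1.72, from 4.36 and 3.40 CPM to 16.6 and 8.87 CPM, but lost its call without co-culture library 1 (adjusted p = 0.144) or monoculture library 2 (adjusted p = 0.085), and in the DESeq2 Wald test (adjusted p = 0.127). Neurl3, a ubiquitin ligase, went from 7.02 and 4.34 CPM to 13.3 and 16.6 CPM (log2 fold change 1.40, SE 0.20, adjusted p = 0.000191). Rsad2, the interferon-induced protein viperin, went from 6.66 and 3.84 CPM to 13.8 and 13.7 CPM (log2 fold change 1.39, SE 0.23, adjusted p = 0.000646). Spink5, a serine protease inhibitor that was at 0 in GL261 cells, stood at 40.5 and 40.2 CPM alone and 100.4 and 80.7 CPM in co-culture (log2 fold change 1.17, SE 0.16, adjusted p = 0.000106). Angptl6, an angiopoietin-like secreted protein, went from 61.8 and 86.04 CPM to 126 and 223 CPM (log2 fold change 1.24, SE 0.20, adjusted p = 0.000538), and Plk2, a stress-responsive kinase, from 111 and 85.5 CPM to 279 and 160.4 CPM (log2 fold change 1.16, SE 0.20, adjusted p = 0.000683). Efcab6 (1.32) lost its call without co-culture library 1 (adjusted p = 0.0665), and Hist1h1e, a linker histone (1.17), without co-culture library 2 (adjusted p = 0.0992) or monoculture library 1 (adjusted p = 0.0625). Hist1h1e was 1 of 7 among 43 histone cluster genes that rose, while 0 fell and the list's median was -0.05 (6 rose without co-culture library 1, 1 without co-culture library 2, 1 without monoculture library 1 and 4 without monoculture library 2); 28.4% of its transcript sequence recurs elsewhere, so its counts are uncertain. All 12 tested mitochondrially encoded genes had positive fold changes, with a median of 0.54, and 4 passed the test (7, 1, 2 and 1 without the same libraries in turn). Of these mt-Nd6, a subunit of complex I, went from 206 and 130.1 CPM to 326 and 404 CPM (log2 fold change 1.12, SE 0.21, adjusted p = 0.0017). Most replication-dependent histone transcripts and mt-Nd6 lack long poly(A) tails, and the libraries were made from poly(A)-selected RNA.

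Genes of DNA replication and mitosis fell. Of 53 tested DNA replication genes that were not partner-high, 26 fell (49.1%, against 8.52% of all such genes) and 0 rose, with a median log2 fold change of -0.39. Of 36 mitosis and chromosome segregation genes, 17 fell (47.2%) and 0 rose, with a median of -0.45. Summed over the 53 replication genes, the level was 3832 and 3404 CPM in monoculture and 3025 and 2264 CPM in co-culture. Both hypoxic groups lay below normoxia, where monoculture held 8690 and 8593 CPM and co-culture 7450 and 7398 CPM. Because the libraries are bulk RNA, fewer cells in cycle and less RNA of these genes per cell cannot be told apart.

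Single members showed the same order. Mcm6 (chr1:128331590-128359664, minus strand), part of the replicative helicase, stood at 254 and 236 CPM alone and 168 and 127 CPM in co-culture (log2 fold change -0.73, SE 0.13, adjusted p = 0.001). Pcna, the polymerase clamp, stood at 268 and 216 CPM and 178 and 144 CPM (log2 fold change -0.59, SE 0.13, adjusted p = 0.00624). Tk1, thymidine kinase, stood at 54.9 and 39.8 CPM and 29.01 and 21.3 CPM (log2 fold change -0.91, SE 0.16, adjusted p = 0.00104). In each of these genes, which were called on the same libraries, the groups did not overlap, as in 29.7% of the 12660 genes in this direction. Co-culture library 2 was the lowest of all 4. Dnmt1, the maintenance DNA methyltransferase, went from 361 and 322 CPM to 224 and 159 CPM (log2 fold change -0.83, SE 0.14, adjusted p = 0.000811), and its partner Uhrf1 from 132 and 124 CPM to 93.7 and 55.2 CPM (log2 fold change -0.78, SE 0.17, adjusted p = 0.005). Among mitotic genes, the kinase Aurkb (chr11:69045647-69051664, plus strand) went from 53.4 and 49.2 CPM to 29.5 and 22.7 CPM (log2 fold change -0.97, SE 0.14, adjusted p = 0.000124), and the cyclin Ccnb2 from 31.6 and 26.4 CPM to 17.7 and 12.1 CPM (log2 fold change -0.95, SE 0.16, adjusted p = 0.000774). Ncapd2, a condensin subunit, went from 128 and 118 CPM to 87.5 and 51.6 CPM (log2 fold change -0.82, SE 0.17, adjusted p = 0.00335). The counts rested on single libraries: of replication genes 40 fell without co-culture library 1, 12 without co-culture library 2, 13 without monoculture library 1 and 29 without monoculture library 2, and of mitotic genes 34, 8, 10 and 17. In normoxia 5 replication and 1 mitotic gene fell in co-culture. The interaction was called in 0 replication genes and was negative in 3 mitotic genes, among them Aurkb (-0.92, SE 0.18, adjusted p = 0.0232).

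Genes that mark macrophages and microglia fell more often than they rose. Of 43 tested identity genes, 13 fell (30.2%) and 3 rose (6.98%), with a median log2 fold change of -0.23. In normoxic co-culture 5 of them fell and 8 rose, with a median of 0.16. Csf1r (chr18:61100598-61132149, plus strand), the receptor that macrophages need to survive, stood at 1138 and 1090 CPM alone and 748 and 704 CPM in co-culture (log2 fold change -0.62, SE 0.12, adjusted p = 0.00223). The monoculture libraries lay close together and above both co-culture libraries. Mef2c, a transcription factor of microglia, went from 82.5 and 73.4 CPM to 39.4 and 33.7 CPM (log2 fold change -1.09, SE 0.13, adjusted p = 4.36e-05). Trem2, a lipid receptor of microglia, went from 185 and 169 CPM to 110.03 and 83.5 CPM (log2 fold change -0.87, SE 0.13, adjusted p = 0.000199). Cd33, an inhibitory sialic acid receptor, went from 39.9 and 54.1 CPM to 25.1 and 25.1 CPM (log2 fold change -0.91, SE 0.14, adjusted p = 0.00039), and the transcription factor Runx1 from 75.3 and 72.5 CPM to 52.8 and 47.1 CPM (log2 fold change -0.57, SE 0.12, adjusted p = 0.00342). Fcgr4, an activating antibody receptor, rose from 32.6 and 31.2 CPM to 45.7 and 52.7 CPM (log2 fold change 0.63, SE 0.13, adjusted p = 0.00259). Itgam, an integrin subunit, rose too (log2 fold change 0.48, adjusted p = 0.044), but lost its call under 6 of the 13 alternatives. Of its transcript sequence 65.2% recurs in other genes. Lyz2, lysozyme, also rose (0.42, adjusted p = 0.0446), but lost its call without co-culture library 1 (adjusted p = 0.326), co-culture library 2 (adjusted p = 0.068), monoculture library 1 (adjusted p = 0.0694) or monoculture library 2 (adjusted p = 0.384). The glioma markers and the GL261 share given above were higher in the same co-culture libraries, and their part in this fall was not tested beyond the subtraction that follows. With the estimated GL261 RNA subtracted, 10 identity genes fell, and without a filter on low counts 20 did.

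Endosomal and surface Toll-like receptors and other receptors were part of this fall. Of 27 Toll-like receptors and adaptors, 6 fell (22.2%) and 0 rose. Tlr7 (chrX:167304929-167330558, minus strand), an endosomal sensor of single-stranded RNA, stood at 90.4 and 110.2 CPM in monoculture and 37.2 and 28.3 CPM in co-culture (log2 fold change -1.61, SE 0.14, adjusted p = 9.28e-07). Tlr13, a sensor of bacterial ribosomal RNA, stood at 99.4 and 95.1 CPM and 57.02 and 27.9 CPM (log2 fold change -1.19, SE 0.22, adjusted p = 0.00128). In hypoxic GL261 monoculture they were at 0.0278 and 0.0462 CPM, and for both genes the groups did not overlap. The surface receptors Tlr2 (-0.67, adjusted p = 0.00443) and Cd180 (-0.70, 0.00257) fell, as did Cd180's partner Ly86 (-0.85, 0.00322). Tlr9, a DNA sensor, fell as well (-0.79, 0.0101) but lost its call without co-culture library 2 (adjusted p = 0.0679). Of 26 purinergic, ion channel and motility receptors, 11 fell (42.3%) and 2 rose, with a median of -0.36, and 7 fell without co-culture library 2 or with GL261 RNA subtracted. P2ry12, the purinergic receptor of surveying microglia, was low throughout, at 3.72 and 4.45 CPM alone and 1.61 and 1.92 CPM in co-culture (log2 fold change -1.21, SE 0.25, adjusted p = 0.00323). Kcnn4, a calcium-activated potassium channel, fell from 27.2 and 26.5 CPM to 15.03 and 15.1 CPM (log2 fold change -0.83, SE 0.12, adjusted p = 0.000171), and S1pr2, a sphingolipid receptor, from 167 and 178 CPM to 122 and 95.4 CPM (log2 fold change -0.67, SE 0.12, adjusted p = 0.00127). P2ry6, a uridine nucleotide receptor linked to phagocytosis, fell from 10.4 and 7.63 CPM to 5.46 and 5.37 CPM in hypoxia (-0.73, adjusted p = 0.0256) and rose from 12.4 and 9.76 CPM to 28.4 and 21.9 CPM in normoxia (1.18, adjusted p = 0.000755). Its interaction was -1.91 (SE 0.28, adjusted p = 0.00485), but its hypoxic call was lost without co-culture library 2 (adjusted p = 0.068) or monoculture library 1 (adjusted p = 0.142), and with GL261 RNA subtracted (0.0572 and 0.0621).

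Sterol efflux and guidance genes fell as well, and falls among lipid synthesis and uptake genes depended on the setting. Of 15 tested LXR targets and sterol efflux genes, 6 fell (40%) and 0 rose, with a median of -0.31. Abca1 (chr4:53030787-53159895, minus strand) and Abcg1, the transporters that export cholesterol, stood at 141 and 161 CPM and 209 and 187 CPM alone and at 94.4 and 63.8 CPM and 113 and 98.3 CPM in co-culture. The log2 fold change of Abca1 was -0.94 (SE 0.17, adjusted p = 0.00145) and that of Abcg1 -0.91 (SE 0.11, adjusted p = 4.35e-05). Mylip, which degrades the low density lipoprotein receptor, fell from 21.999 and 23.8 CPM to 13.03 and 12.6 CPM (log2 fold change -0.84, SE 0.14, adjusted p = 0.000566), and Arl4c, another LXR target, from 114 and 113 CPM to 71.9 and 71.5 CPM (log2 fold change -0.66, SE 0.12, adjusted p = 0.00164). Of 36 cholesterol and fatty acid synthesis and uptake genes, 9 fell and 1 rose, but 1 fell without co-culture library 2, and 4 or 2 with GL261 RNA subtracted by its monoculture or co-culture profile. In the main fit 25% of this list fell and 2.78% rose, beside 8.52% and 3.91% of all genes that were not partner-high. Elovl6, a fatty acid elongase, had the largest fall on this list, from 18.3 and 18.997 CPM to 11.7 and 8.52 CPM (log2 fold change -0.88, SE 0.17, adjusted p = 0.0017). Of 16 semaphorins, plexins and neuropilins, 7 fell (43.8%) and 1 rose. Sema4g went from 40.9 and 61.2 CPM to 14.3 and 20.3 CPM (log2 fold change -1.57, SE 0.19, adjusted p = 4.12e-05). Nrp2, a semaphorin co-receptor, went from 204 and 230.1 CPM to 113 and 88.02 CPM (log2 fold change -1.11, SE 0.14, adjusted p = 4.47e-05).

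Lysosomal, scavenger and lipid-associated macrophage genes were mixed. Of 60 lysosomal enzymes and TFEB-family factors 12 fell (20%) and 3 rose (5%). Without co-culture library 2, 7 of them fell and 0 rose, and 0 rose without either monoculture library. Of 24 scavenger and efferocytosis receptors 5 fell (20.8%) and 3 rose (12.5%), with 1 rising without either monoculture library. Of 29 lipid-associated macrophage genes 5 fell (17.2%) and 3 rose (10.3%). Without co-culture library 1, 8 of these fell and 0 rose, 3 fell without co-culture library 2 or monoculture library 1, and 1 rose without either monoculture library. Arsb and Sgsh, which degrade sulphated glycans, fell from 245 and 278 CPM to 165 and 99.9 CPM (log2 fold change -0.98, SE 0.17, adjusted p = 0.000813) and from 37.6 and 39.3 CPM to 21.8 and 17.8 CPM (log2 fold change -0.95, SE 0.14, adjusted p = 0.000258). Lrp1, a large endocytic receptor, fell from 640.4 and 727 CPM to 503 and 394 CPM (log2 fold change -0.61, SE 0.13, adjusted p = 0.00512). Cst7, a protease inhibitor of activated microglia, fell from 90.7 and 104 CPM to 56.6 and 43.5 CPM (log2 fold change -0.96, SE 0.14, adjusted p = 0.000138). Spp1, osteopontin, a secreted phosphoprotein, rose from 4923 and 4506 CPM to 7213 and 6295 CPM (log2 fold change 0.52, SE 0.13, adjusted p = 0.0112), but lost its call without co-culture library 1 (adjusted p = 0.126) or monoculture library 2 (adjusted p = 0.109).

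The genes with the largest falls outside these lists had varied functions. Neurl1b (chr17:26414829-26446349, plus strand), a ubiquitin ligase of the Notch pathway, fell the most among genes with a mean of at least 8 CPM, from 18.05 and 19.9 CPM to 4.45 and 4.61 CPM (log2 fold change -2.07, SE 0.19, adjusted p = 1.97e-06). Hectd2os, an antisense transcript, had a log2 fold change of -1.78, and without knowledge of strand use in counting its reads cannot be told from those of its partner gene. Pear1, a platelet aggregation receptor, went from 13.6 and 15.6 CPM to 5.29 and 4.14 CPM (log2 fold change -1.63, SE 0.21, adjusted p = 6.82e-05). Dlg3, a synaptic-type scaffold, went from 16.3 and 18.1 CPM to 5.62 and 5.77 CPM (log2 fold change -1.59, SE 0.17, adjusted p = 6.94e-06). Angptl2, a secreted inflammatory mediator, went from 51.6 and 55.6 CPM to 21.8 and 16.9 CPM (log2 fold change -1.47, SE 0.14, adjusted p = 1.8e-06). The groups stood apart in each of these. Kctd12b (-1.44), Rnf150 (-1.44), Ptpre (-1.34) and Paqr7 (-1.31) completed the largest falls, with adjusted p-values of 2.36e-06, 0.000339, 4.63e-05 and 3.94e-06. Ighm, an immunoglobulin heavy chain gene, fell from 54.1 and 64.5 CPM to 21.6 and 24.5 CPM (log2 fold change -1.36, SE 0.27, adjusted p = 0.0026), in libraries where the summed T and B cell markers were at most 0.343 CPM.

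The other lists held between 0 and 4 called members in each direction among those not partner-high. The share of each list is given beside the 3.91% of genes that rose and the 8.52% that fell. Of 29 interferon-stimulated genes 2 rose (6.9%) and 3 fell (10.3%), and of 26 interferon regulators 1 rose (3.85%) and 3 fell (11.5%). Among these was Samhd1, which limits nucleotides for viruses, from 192 and 194 CPM to 119.7 and 117 CPM (log2 fold change -0.70, SE 0.11, adjusted p = 0.000289). Of 56 hypoxia-response genes 2 rose (3.57%) and 4 fell (7.14%), with a median of -0.02. Ero1l, an oxidase of the endoplasmic reticulum on that list, rose from 1330 and 1631 CPM to 2297 and 2557 CPM (log2 fold change 0.71, SE 0.13, adjusted p = 0.00102). Of 23 class I presentation genes 4 rose (17.4%), Calr and Pdia3 among them, and 1 fell (4.35%). Without co-culture library 2 or monoculture library 1, 2 class I genes rose. Of 10 class II genes 1 fell (10%), Ifi30, a lysosomal thiol reductase (log2 fold change -0.84, SE 0.11, adjusted p = 9.52e-05). Of 24 alternative activation genes 3 rose (12.5%) and 2 fell (8.33%). Without co-culture library 1, 1 of these rose and 5 fell, and without monoculture library 2, 0 rose and 1 fell. Of 29 NRF2 antioxidant genes 3 rose (10.3%) and 1 fell (3.45%), with 0 rising without monoculture library 2 and 1 without co-culture library 1 or monoculture library 1. Of 15 iron genes 2 rose (13.3%) and 1 fell (6.67%), and 1 rose without any one library except co-culture library 2. Slc11a2, an iron importer, rose from 25.3 and 26.2 CPM to 58.6 and 39.7 CPM (log2 fold change 0.93, SE 0.17, adjusted p = 0.0011). The counts of interferon-stimulated and hypoxia-response genes that rose were 1 without each of the 4 libraries in turn, and that of interferon regulators was 0. Without co-culture library 2 or monoculture library 1, 1 interferon-stimulated gene and 2 hypoxia-response genes fell, and without co-culture library 1, 5 interferon regulators fell.

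In the remaining lists more of the members that were not partner-high fell than rose. Another 13 tested members of the YAP/TEAD and adhesion list were partner-high, and 11 of those rose and 0 fell. Of 14 YAP/TEAD and adhesion genes 1 rose (7.14%) and 3 fell (21.4%), with 1 falling without co-culture library 2. Of 16 histone deacetylases and sirtuins 3 fell (18.8%), with 1 falling without monoculture library 2, and of 17 cytosolic heat shock genes 2 fell (11.8%), with 0 rising in either list. Hsph1, a cytosolic Hsp110 chaperone, fell from 97.5 and 101 CPM to 58.4 and 56.6 CPM (log2 fold change -0.79, SE 0.11, adjusted p = 0.000128), opposite in direction to the chaperones of the endoplasmic reticulum. Of 76 nuclear respiratory chain subunits 1 fell (1.32%) and of 79 ribosomal protein genes 2 fell (2.53%), with 0 rising in each, but these counts depended on the libraries and the filter. Without monoculture library 2, 12 respiratory subunits and 11 ribosomal genes fell, and without co-culture library 2, 7 ribosomal genes fell. Without monoculture library 1 neither list had a called member, and without a filter on low counts 13 respiratory subunits and 34 ribosomal genes fell.

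**Figure D3:**
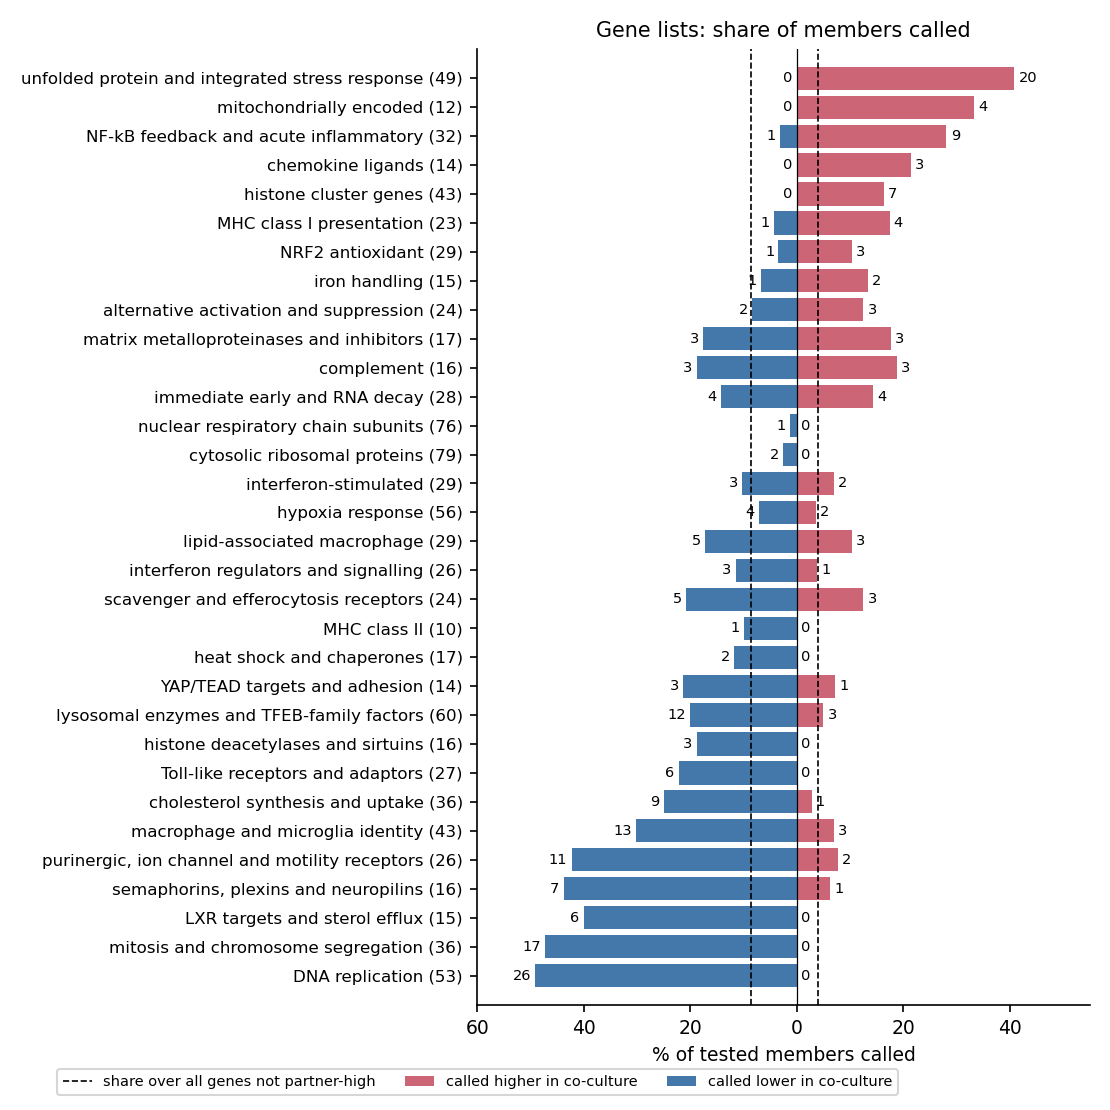
Share of tested members called lower (left, blue) and higher (right, red) in hypoxic BV2 co-culture for each gene list (y axis, number of tested members that were not partner-high in brackets), with counts at the bar ends. Dashed lines mark 8.52% lower and 3.91% higher over all such genes; the stress-response list reaches 40.8% higher and the DNA replication list 49.1% lower.

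The co-culture effect at low oxygen was set beside that in normoxia, where 1687 of the 12660 genes (13.3%) were called, 420 higher (3.32%) and 1267 lower (10%), beside 14.9% of all tested genes, 5.77% higher and 9.14% lower. Of the 495 genes that rose in hypoxia, 71 also rose and 12 fell in normoxia. Of the 1078 that fell, 380 also fell and 11 rose. The interaction passed the test in 262 genes (2.07%), and in 79 of the 495 and 102 of the 1078. It contains the hypoxic difference by which the 495 and the 1078 were selected, which raises their shares. C3, Neurl3 and Ccl4 rose at both oxygen levels, with log2 fold changes in normoxia of 0.87 (adjusted p = 0.00767), 1.38 (0.000291) and 0.88 (0.00367). Abcg1 and Mef2c fell at both, with -0.43 (0.0192) and -0.82 (0.000965) in normoxia. Tlr7 fell at both as well, with -0.59 in normoxia and -1.61 in hypoxia (interaction -1.02, SE 0.19, adjusted p = 0.0178).

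**Figure D4:**
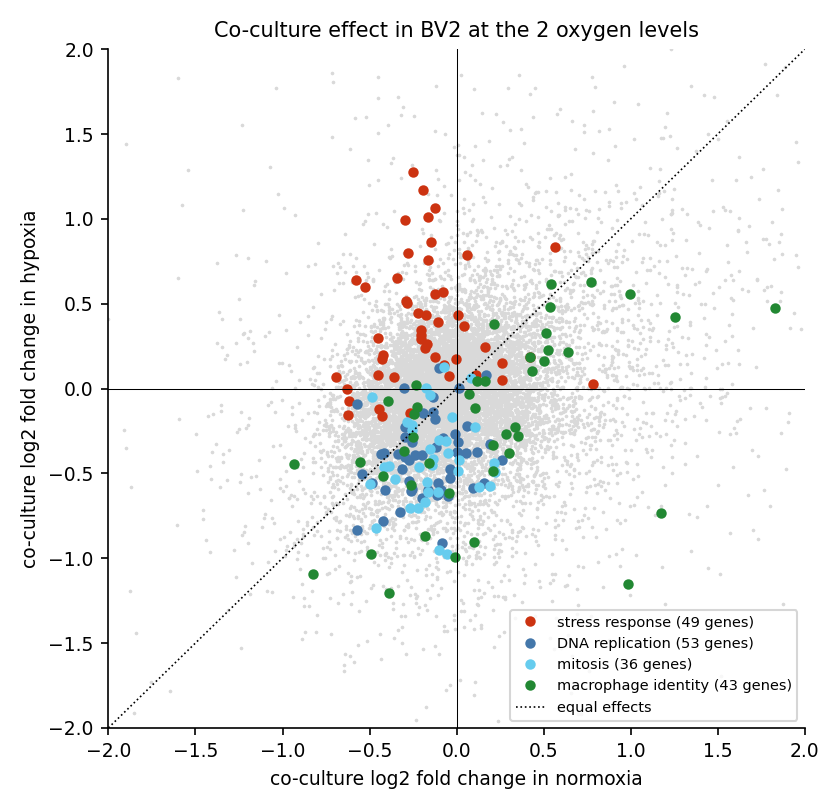
Co-culture log2 fold change in hypoxia (y axis) against that in normoxia (x axis) for genes that were not partner-high; each point is a gene, grey for all and coloured for 4 lists, the dotted line marks equal effects, and values beyond 2 on either axis lie outside the frame. The stress-response genes (red) have a median of 0.30 in hypoxia and -0.19 in normoxia, and DNA replication genes (blue) have medians of -0.39 and -0.14.

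In hypoxic BMDM, tested in a fit of their own table, 1053 of 14806 genes (7.11%) were called in co-culture, 601 higher (4.06%) and 452 lower (3.05%). Of the 601, 462 were partner-high by the BV2 rule (17.9% of such genes tested there). Of the 12221 tested genes that were not partner-high 4.59% were called, 139 higher (1.14%) and 422 lower (3.45%). Of the partner-high genes that rose in hypoxic BV2, 662 were tested in BMDM, and 289 rose and 3 fell there. The part of GL261 RNA in the BMDM values was not tested. Of the genes not partner-high that rose in hypoxic BV2, 458 were tested there, and 21 rose and 2 fell. Of those that fell, 1033 were tested, and 151 fell and 7 rose. Angptl6, at 57.9 CPM in hypoxic GL261, rose in both cell types (1.35, adjusted p = 0.00637 in BMDM), as did Rsad2 (1.82, 0.0461). Angptl2 (-1.76, 0.0061), Nrp2 (-0.75, 0.0223) and Tlr13 (-0.96, 0.0286) fell in both. Sema4g, at 23.7 CPM in hypoxic GL261, was called in opposite directions, with 4.95 (adjusted p = 0.0133) in BMDM. The BMDM co-cultures were plated at another cell ratio and in medium with 10% serum, so sizes are given side by side only, and the difference between cell types was not tested.

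Partner-high genes were called far more often and almost all upward. Of 1772 tested, 693 (39.1%) were called, 679 higher (38.3%) and 14 lower (0.79%), and the median log2 fold change of those called higher was 4.04. With the estimated GL261 RNA subtracted, 164 or 130 were called higher, depending on whether the monoculture or the co-culture profile of GL261 was used. For the 614 called higher with at least 20 CPM in hypoxic GL261 monoculture, the rise in BV2 co-culture had a median of 2.59% of the GL261 level (quartiles 2.03% and 3.81%), beside GL261 shares of 2.07% and 2.33%. The 261 genes behind those shares are partner-high by their own definition, so the values share genes. The rise was more than 3 times the share in 92 of them and more than 10 times in 4. Of single genes, Hbegf is a growth factor that binds the EGF receptor and stood at 9.08 and 8.24 CPM in monoculture and 38.8 and 27.5 CPM in co-culture with 520.5 CPM in GL261 (log2 fold change 1.94, SE 0.17, adjusted p = 1.24e-06), a rise of 2.07 times the share. Nol10, a nucleolar protein, stood at 17.6 and 15.5 CPM and 39.4 and 28.2 CPM (log2 fold change 1.03, SE 0.15, adjusted p = 0.00023), a rise of 11.7 times the share. Rnd1, a small GTPase, stood at 15.2 and 14.2 CPM and 28.01 and 31.3 CPM (log2 fold change 1.01, SE 0.14, adjusted p = 0.000127), a rise of 10.5 times. Gfra1, a receptor of glial cell line-derived factors, stood at 3.13 and 4.01 CPM and 11.3 and 7.52 CPM (log2 fold change 1.40, SE 0.25, adjusted p = 0.00097), a rise of 16.1 times. Plec, a cytoskeletal linker, was partner-high and fell, from 402 and 373 CPM to 284 and 168 CPM (log2 fold change -0.78, SE 0.18, adjusted p = 0.00614), a call lost in the DESeq2 Wald test (adjusted p = 0.0531). Of the stress list, 6 tested genes were partner-high, and 4 of them rose and 0 fell. Of interferon-stimulated genes it was 21, with 10 rising and 0 falling. Of metalloproteinases and inhibitors it was 12, with 11 rising and 0 falling, and of YAP/TEAD and adhesion genes 13, with 11 and 0. Of immediate early and RNA decay genes it was 20, with 11 rising and 1 falling. Of mitotic genes it was 28, with 1 rising and 4 falling. Next to the 4-fold limit, Tbc1d10a and Akirin1 lay just below it at 3.98 and 3.97 times the BV2 level, with log2 fold changes of 0.41 and 0.46, and Ccdc59 and Hsf2 just above it at 4.01 times each, with 0.49 and 0.45.

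**Figure D5:**
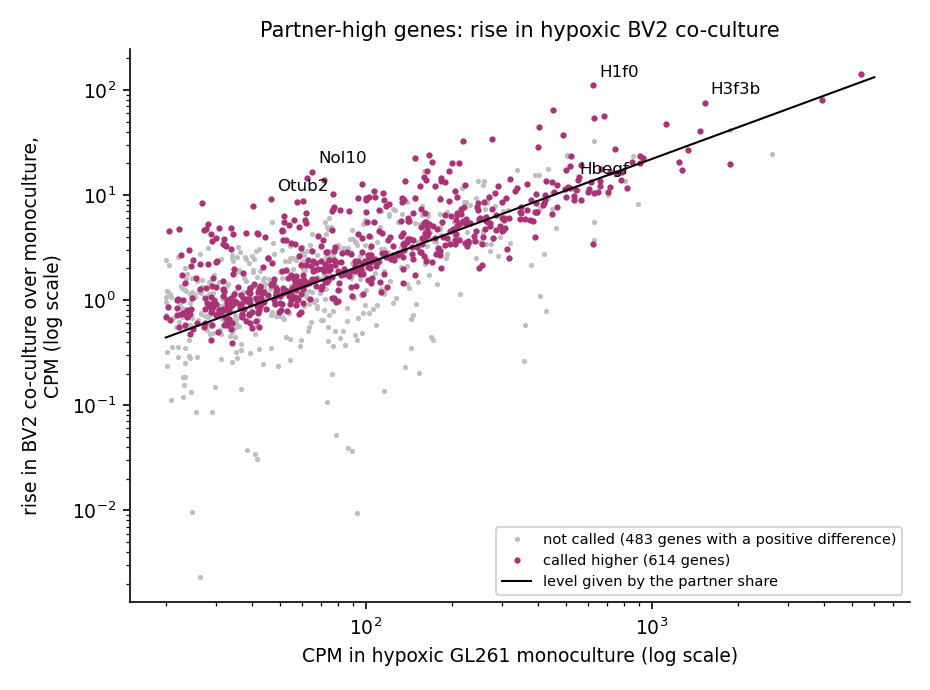
Rise in hypoxic BV2 co-culture over monoculture (y axis, CPM, log scale) against the level in hypoxic GL261 monoculture (x axis, CPM, log scale) for partner-high genes with a positive difference and at least 20 CPM in GL261. The 614 genes called higher (purple) scatter around the line that the GL261 share gives, and 92 of them lie at more than 3 times that line.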

How the data were processed

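Poly(A)-selected RNA from mouse cells fixed on ice in 3% glyoxal was sequenced as stranded libraries of paired 151-base reads. The authors deposited raw gene counts. Trimmomatic 0.36, STAR 2.6, Picard 2.17.1, HTSeq 0.9.1 and the mm10 build are named for the BV2 and GL261 libraries in the submitters' processing notes, and the annotation release and the strand setting of counting are not given in the sources used here. The 8 BV2 libraries (hypoxic or normoxic, co-culture or monoculture, 2 each) were fitted together in edgeR 4.0.16 (R 4.3.3) with TMM scaling, filterByExpr defaults (minimum count 10, minimum total 15) and the quasi-likelihood test, with Benjamini-Hochberg adjustment over 14432 genes and a threshold of 0.05. Standard errors (SE) were derived from each log2 fold change and its F statistic. BMDM libraries, deposited in another table, were fitted separately. Total counts of the hypoxic BV2 libraries were 17503500 to 18570700 (to 6 digits), and the common coefficient of biological variation was 0.0958.

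The GL261 share of a library came from 261 genes with at least 20 CPM in GL261 and a level at least 100-fold higher than in BV2 (0.5 CPM added to both). The labels call the libraries biological replicates without naming separate cultures, so p-values measure the spread between these libraries. Replicate numbers did not pair the compared groups (correlation of deviations -0.00123). That correlation was 0.344 between hypoxic and normoxic monoculture and 0.168 between hypoxic and normoxic co-culture, groups that the interaction joins. Of the 20 stress genes that rose, the second library was the higher in 20 in hypoxic monoculture and in 16 in hypoxic co-culture. On simulated counts of 13910 genes, the test recovered 100 of 100 genes changed by 1 on the log2 scale. It recovered 73 of 100 changed by 0.6, and made 7 false calls. The simulation gave every gene the common coefficient of biological variation, and changed only genes with a mean of at least 8 CPM. Genes that vary more between libraries were not simulated, so these figures do not give the recovery or false calls of the comparison itself.

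The gene set, the gene lists and the tests were chosen with earlier results of these data known. Named genes were, among called genes that were not partner-high with a mean of at least 8 CPM and no overlap between groups, the 12 largest rises and 12 largest falls; up to 3 called members per direction of each list; and, among partner-high genes, the 4 most abundant and the 6 with the largest rise relative to the GL261 share. The following were added after their values were seen: Hspa5, Hsp90b1, Pdia6, Hyou1, Manf, Sdf2l1, Dnajc3, Sel1l, Syvn1, Aars, Gars, Asns, Ppp1r15a, Atf4, Ddit3, Xbp1, Trib3, Pycr1, Pck2, Nupr1, Slc7a11, Psat1, Mcm6, Pcna, Csf1r, Cd33, P2ry6, Runx1, Tlr2, Tlr9, Cd180, Nos2, Nfkbiz, Arl4c, S1pr2, Hbegf and all genes under other observations. Alternatives were DESeq2 1.42.0, DESeq2 size factors, other filters, a replicate block, fewer libraries, other partner-high folds, and removal or subtraction of GL261 RNA. They were applied to the hypoxic comparison and not to the interaction. Chromatin data and the drug-treated libraries were not analysed here. Values of a few genes that enter the counts are not reported here.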

Additional observations from a re-analysis of the deposited data

Results flagged for a closer look

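For the genes named here the co-culture effect differed between the oxygen levels. The test was the interaction term of edgeR's quasi-likelihood fit, and the values here are the log2 fold change in hypoxia minus that in normoxia, all with an adjusted p under 0.05. The interaction was called in 2.07% of genes that were not partner-high.

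Positive differences were found for the following genes of the stress list, for Pdia3 of the class I list and for Pdia5 and Slc35b1 of no list: Wars (1.53), Hsp90b1 (1.29), Pdia4 (1.36), Hspa5 (1.18), Hyou1 (1.22), Creld2 (1.19), Sel1l (1.12), Aars (1.08), Pdia6 (1.01), Dnajc3 (0.99), Sdf2l1 (0.92), Pdia5 (0.91), Pdia3 (0.89), Slc35b1 (0.82), Asns (0.79) and Gars (0.68). Ptgs2 (1.51), Tfrc, the transferrin receptor (1.33), and Jak1, a cytokine receptor kinase (0.70), had a positive fold change in hypoxia and a negative one in normoxia. The hypoxic call of Tfrc was lost without co-culture library 1 (adjusted p = 0.478), monoculture library 1 (adjusted p = 0.0875) or monoculture library 2 (adjusted p = 0.093) and in the DESeq2 Wald test (0.17), and its log2 fold change of 0.85 was 0.23 without co-culture library 1. That of Jak1 (log2 fold change 0.39) was lost without co-culture library 1 (adjusted p = 0.29), co-culture library 2 (adjusted p = 0.0528), monoculture library 1 (adjusted p = 0.337) or monoculture library 2 (adjusted p = 0.0792), that of Ptgs2 without co-culture library 1 (adjusted p = 0.0738). The partner-high genes were Hbegf (1.84), Gfra1 (1.52) and Nol10 (1.13). A negative fold change in hypoxia and a positive one in normoxia were seen in P2ry6 (-1.91), Zfp36 (-1.74), Dusp2 (-1.12), Osgin1 (-0.90), Rps23 (-0.76), Ly6e (-0.64) and Cd33 (-1.005). The hypoxic call of Osgin1 was lost under 9 of the 13 alternatives (adjusted p up to 0.173), that of Rps23 under 4, both subtractions of GL261 RNA among them (up to 0.0883), and that of P2ry6 under 4 (up to 0.142). Of Rps23 transcript sequence 33.9% recurs in other genes, so its counts are uncertain. Negative in hypoxia and less so in normoxia were Neurl1b (-1.47), Ptpre (-1.22), Dlg3 (-1.16), Nfam1 (-1.13), Angptl2 (-1.11), Tlr7 (-1.02), Rin3 (-0.95), Aurkb (-0.92), Il6ra (-0.83), Ifi30 (-0.78) and Paqr7 (-0.75). Lyz2 had positive fold changes at both oxygen levels, smaller in hypoxia (-0.83), where its call was lost without co-culture library 1 (adjusted p = 0.326), co-culture library 2 (adjusted p = 0.068), monoculture library 1 (adjusted p = 0.0694) or monoculture library 2 (adjusted p = 0.384).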

How the results depend on the processing

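Among genes that were not partner-high, 1573 calls became 1560 with DESeq2 size factors and 1305 with the DESeq2 Wald test, of which 1545 and 1258 were shared in the same direction. Without a filter on low counts 403 genes were called higher and 1900 lower. Single log2 fold changes were lower in that setting by similar amounts. Acss2, Ctsd and Jak1 stood at 0.32, 0.28 and 0.30, beside 0.41, 0.37 and 0.39 in the main fit. The added falls in that setting, those of ribosomal and respiratory genes included, may therefore not be particular to those genes. Leaving out single libraries gave 1048 to 1676 calls, 146 to 282 higher and 813 to 1394 lower, and left an arm with 1 library that was assumed to vary like the other groups. Over all genes, 2266 calls became 1461 at a mean CPM of at least 5. With GL261 RNA subtracted by its monoculture or co-culture profile they became 1479 or 1393. With partner-high genes left out of the fit 1364 genes were called, beside 1573 of the same 12660 genes in the main fit. Of these, 1331 were shared in the same direction. Of partner-high genes, 679 called higher became 174 under the CPM minimum and 164 and 130 under the 2 subtractions. Under the replicate block 2431 genes were called overall and 1722 among those not partner-high, and the block changed the call of 0 of the 190 named genes. Of these, 171 were tested under all 13 alternatives and 103 kept their side of the threshold in each; 78 genes lost or gained a call or changed sign in at least 1, and the other 9, not tested under some, kept theirs where tested. Uncalled genes changed sign: Atf4 was at -0.0091 without a filter and between -0.10 (without co-culture library 2) and 0.13 when single libraries were left out, and Ddit3 between -0.18 (without co-culture library 2) and 0.47, with -0.03 without monoculture library 1. Medians ranged over the alternatives from 0.19 to 0.39 for the stress list, -0.72 to -0.29 for DNA replication, -0.75 to -0.30 for mitosis and -0.32 to -0.16 for macrophage identity. The causes were not tested. On simulated counts 73 of 100 genes changed by 0.6 on the log2 scale were recovered. Smaller changes, and genes that vary more than the common coefficient, were not simulated.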

Other observations

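The 14 genes named here are on no list and were chosen after their values were seen, so they stand for no group. Nfam1, an adaptor of immune receptors, stood at 59.04 and 50.95 CPM alone and 24.9 and 19.6 CPM in co-culture (log2 fold change -1.30, SE 0.13, adjusted p = 6.35e-06). Rin3, a guanine nucleotide exchange factor of endocytosis, stood at 157 and 165 CPM and 65.3 and 73.4 CPM (log2 fold change -1.22, SE 0.11, adjusted p = 2.02e-06), and its relative Rin2 at 128 and 125 CPM and 60.8 and 61.5 CPM (log2 fold change -1.05, SE 0.11, adjusted p = 1e-05). Il6ra, the interleukin 6 receptor, stood at 118 and 122 CPM and 56.4 and 51.1 CPM (log2 fold change -1.17, SE 0.12, adjusted p = 9.79e-06). The groups did not overlap in these genes. The kinase Btk had a log2 fold change of -0.81 (adjusted p = 8.82e-05), the phosphoinositide kinases Pik3cg and Pik3cd of -0.94 (6.6e-05) and -0.80 (0.000127), and the phosphatases Inpp5d and Ptpn6 of -0.81 (0.000251) and -0.75 (0.000389). Rasgrp3, which acts between receptors and Ras, had -1.28 (2.14e-06).

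The other 4 genes had positive fold changes. Pdia5, a disulphide isomerase, stood at 28.1 and 31.7 CPM alone and 55.2 and 64.6 CPM in co-culture (log2 fold change 1.00, SE 0.13, adjusted p = 6.83e-05). Slc35b1, a nucleotide transporter of the endoplasmic reticulum, stood at 34.03 and 45.7 CPM and 77.01 and 84.1 CPM (log2 fold change 1.01, SE 0.14, adjusted p = 0.000111). Ppib, a prolyl isomerase, had a log2 fold change of 0.81 (adjusted p = 0.000145) and Wfs1, a membrane protein of the same compartment, of 0.76 (0.000563).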
